A study of Mus musculus with 8 samples.

Results

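Catecholamines are made, packed and broken down by a short chain of proteins, and the 9 genes described here follow that chain in Neuro2a cells, an established mouse neuroblastoma line of AJ background. They are Th, Ddc and Dbh for synthesis, Slc18a1, Slc18a2, Chga and Chgb for storage, Slc6a2 for uptake and Maoa for breakdown. Each member is a gene of this chain that has a transcript cluster (the probe group of 1 gene on the array) carrying its symbol alone. Where a gene has several such clusters, the rule takes the brightest by the mean of all arrays, but each of the 9 genes had 1 cluster, so no choice was made. They are 9 of the 19938 genes named in this way. The series holds 8 Affymetrix mouse gene arrays, 4 of RNA from the anchorage dependent (AD) phenotype and 4 from the anchorage independent (AI) phenotype. AD cells had been grown attached, in DMEM with fetal bovine serum. AI cells had been grown as detached tumorspheres in NeuroCult neural stem cell medium, free of serum and supplied with EGF, bFGF and heparin. The effects of attachment and of medium therefore cannot be told apart. Both phenotypes come from the same line, and no animal or primary tissue was measured on the arrays.

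Neuroblastoma arises from the sympathoadrenal lineage of the neural crest, whose mature cells, sympathetic neurons and chromaffin cells, use noradrenaline and adrenaline as messengers. Tyrosine hydroxylase turns tyrosine into L-DOPA, the rate-limiting step, aromatic amino acid decarboxylase turns L-DOPA into dopamine, and dopamine beta-hydroxylase turns dopamine into noradrenaline inside the vesicle. Vesicular monoamine transporters load the amines into granules whose matrix is built from chromogranins, the noradrenaline transporter takes released amine back up, and monoamine oxidase breaks it down at the mitochondrial surface.

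The bases just before the transcription start are shown for 4 members that illustrate the patterns below: both members that rose in AD cells (Dbh and Th), and the chromogranin pair, whose genes changed unequally. Each run holds the 150 bases before the start in RefSeq's GRCm38.p6, the assembly of another strain than that of the line, written in the direction of transcription. Capitals mark, in all 4 and on either strand, ATTA, a core that homeodomain factors bind, and TGACGT, which is part of the cAMP response element TGACGTCA.
Dbh (chr2:27165357-27165506, plus strand): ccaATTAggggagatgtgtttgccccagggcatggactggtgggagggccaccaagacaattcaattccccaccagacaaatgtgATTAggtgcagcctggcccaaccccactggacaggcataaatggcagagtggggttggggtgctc
Th (chr7:142899996-142900145, minus strand): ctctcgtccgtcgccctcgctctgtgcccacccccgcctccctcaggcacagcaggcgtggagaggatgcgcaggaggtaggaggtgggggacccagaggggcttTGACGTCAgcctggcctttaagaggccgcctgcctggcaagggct
Chga (chr12:102554791-102554940, plus strand): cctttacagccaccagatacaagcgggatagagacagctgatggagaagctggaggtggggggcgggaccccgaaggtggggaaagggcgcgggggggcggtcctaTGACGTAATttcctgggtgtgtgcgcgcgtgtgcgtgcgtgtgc
Chgb (chr2:132781492-132781641, plus strand): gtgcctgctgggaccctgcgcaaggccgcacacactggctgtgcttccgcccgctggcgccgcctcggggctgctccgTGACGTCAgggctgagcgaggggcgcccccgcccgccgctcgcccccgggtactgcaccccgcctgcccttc
Promoters were found for 7 of the 9 genes, as 8 windows of 300 bases that run from 250 before the start to 50 after it, with 2 windows for Ddc. Slc18a1 and Slc6a2 were not matched. Both strands were searched. TGACGTCA was present in the windows of Th (45 to 38 bases before the start), of Chgb (72 to 65 before) and of Slc18a2, where it spans the start, and in 1.79% of all 32851 windows. Chga held only TGACGT, 44 to 39 bases before the start, which 7.51% of all windows hold and which lies within TGACGTCA and in Chga shares a base with a TAAT. ATTA, counted on either strand, stood in the Dbh window 3 times, of which the capitals show those that start 147 and 65 bases before the start. It was not particular to Dbh: the 2 Ddc windows held 3 and 2, Th held 2 (both before the printed run), Slc18a2 and Chga held 1 each, and 58.0% of all windows hold at least 1. These letter matches are descriptions of the sequence and no measure of binding.

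Dbh and Th were the 2 of the 9 genes that were higher in AD cells. No member was lower, and the other 7 were not called. A gene is called when its adjusted p from limma is under 0.05 and the phenotypes differ at least 1.5-fold. Over all 35556 clusters tested, 3.93% were called, 1.39% as higher and 2.53% as lower in AD cells. At any fold, 4 of the 9 genes had an adjusted p under 0.05 (Dbh and Th toward AD cells, Slc18a1 and Chgb toward AI cells), against 18.1% of all clusters. For the same 4 genes no AD array lay within the range of the AI arrays, as held for 22.1% of all clusters. The median difference of the 9 genes, AD minus AI, was -0.12 log2, beside -0.00078 over all clusters. Less RNA per cell and fewer cells that hold it cannot be told apart in these bulk samples, and the precision is limited by having few arrays. The submitters call the 4 samples of a phenotype independent cultures in one place and replicate hybridizations in another, so the spread may in part be technical.

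**Figure D1:**
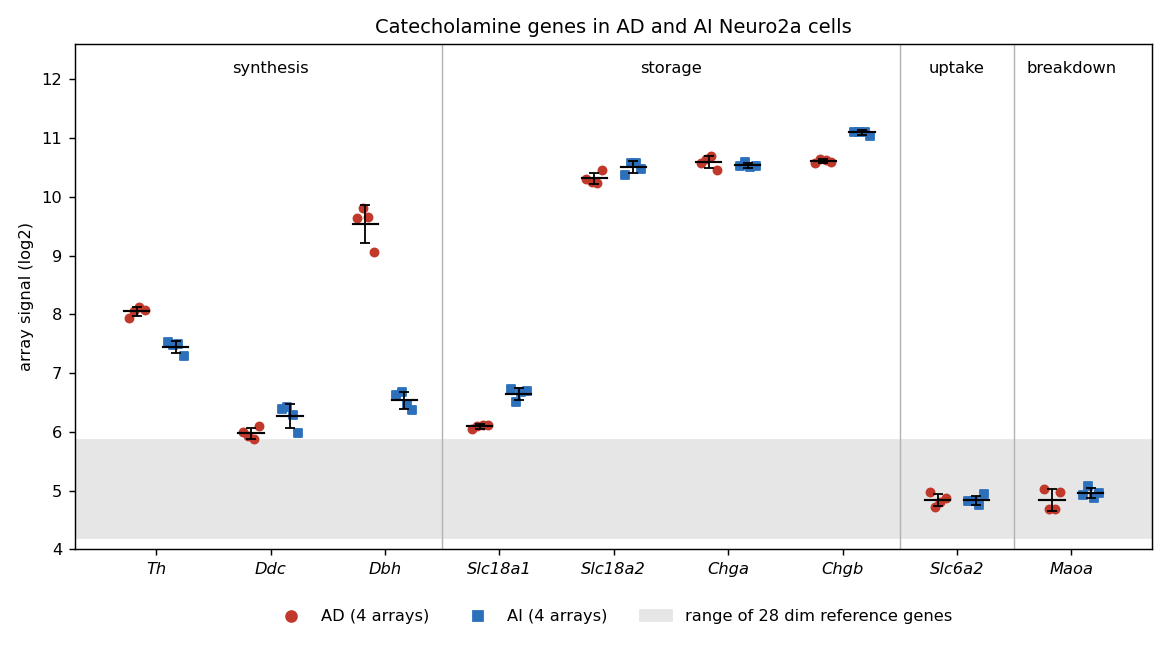
Array signal (log2) of the 9 catecholamine genes, ordered by role, in AD cells (red circles, left) and AI cells (blue squares, right), with 1 point per array, 4 arrays per phenotype, and black bars for the mean and SD. The grey band spans 28 genes of unrelated tissues, from 4.19 to 5.86 log2: Dbh parts the phenotypes most widely (means 9.54 in AD and 6.53 in AI cells), and Slc6a2 and Maoa lie within the band in both.

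Signals were read against 2 guides to background, the median of each array (5.82 to 5.92 log2 in AD cells and 5.92 to 5.99 in AI cells) and a list of 28 genes of liver, muscle, testis, lung, pancreas and blood cells, which reached at most 5.82 log2 in AD cells and 5.86 in AI cells. All 9 measured markers of sympathetic neurons and neuroblastoma were above that list on every array, with means over the markers of 9.65 to 9.80 log2 in AD cells and 9.43 to 9.50 in AI cells. That marker mean thus moved with the phenotype, its part in the differences below was not tested, and 1 of the 9 markers, Phox2a, was called. None of the 3 Schwann cell markers measured was above the list on every array, nor were the immune markers Ptprc and Cd68, 5 of 6 fibroblast and 3 of 4 endothelial markers, the exceptions being Pdgfra and Pecam1. The other immune marker, Cd3e, is itself one of the 28 genes and was not read against them.

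Dbh, the enzyme that makes noradrenaline, was 8.03-fold higher in AD cells. The arrays read 9.64, 9.81, 9.65 and 9.06 log2 in AD replicates 1 to 4, against 6.62, 6.67, 6.47 and 6.37 log2 in AI replicates 1 to 4. AD replicate 4 was the lowest AD array, and it still lay more than 2 log2 above each AI array. The difference was 3.01 log2 (standard error 0.15, 95% confidence interval 2.67 to 3.34, adjusted p = 4.80e-06 from limma). Every AI array was above the dim list and above its own median, so the gene was detected on both sides. The AI signals were not far above the AI array medians of 5.92 to 5.99 log2, so the fold is less certain than its direction.

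Th, the rate-limiting enzyme at the start of the chain, was 1.52-fold higher in AD cells. The signal was 7.93, 8.06, 8.12 and 8.07 log2 in the AD arrays, against 7.53, 7.47, 7.50 and 7.29 log2 in the AI arrays, with no overlap. The difference of 0.60 log2 (standard error 0.07, adjusted p = 0.000471 from limma) lay close to the 1.5-fold limit of 0.58. Without AI replicate 4 it was 0.55 and without AD replicate 3 it was 0.57, so that Th was no longer called although its adjusted p stayed under 0.05.

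Ddc, which makes dopamine from L-DOPA and also serotonin from its own precursor, was dim. It had 5.99, 5.93, 5.88 and 6.10 log2 in AD cells, against 6.39, 6.42, 6.29 and 5.98 log2 in AI cells. AI replicate 4 fell among the AD arrays, and the other AI arrays lay above them. The difference was -0.29 log2 (95% confidence interval -0.52 to -0.07, adjusted p = 0.0711 from limma), which did not pass the test. Without AI replicate 4 the difference was -0.39 log2 with an adjusted p of 0.00921, and with array weights -0.36 log2 with 0.0198, so that Ddc then passed the test, though at less than 1.5-fold. Whether the enzymes changed unequally was tested on their ratios within each array. Dbh over Th was 2.41 log2 higher in AD cells, Dbh over Ddc 3.30 higher and Th over Ddc 0.89 higher. For each of these, all AD arrays lay above all AI arrays (p = 0.0286 by an exact two-sided permutation test, the lowest value open to 4 arrays against 4, and 0.0343 after Benjamini-Hochberg adjustment over 6 pairs).

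**Figure D2:**
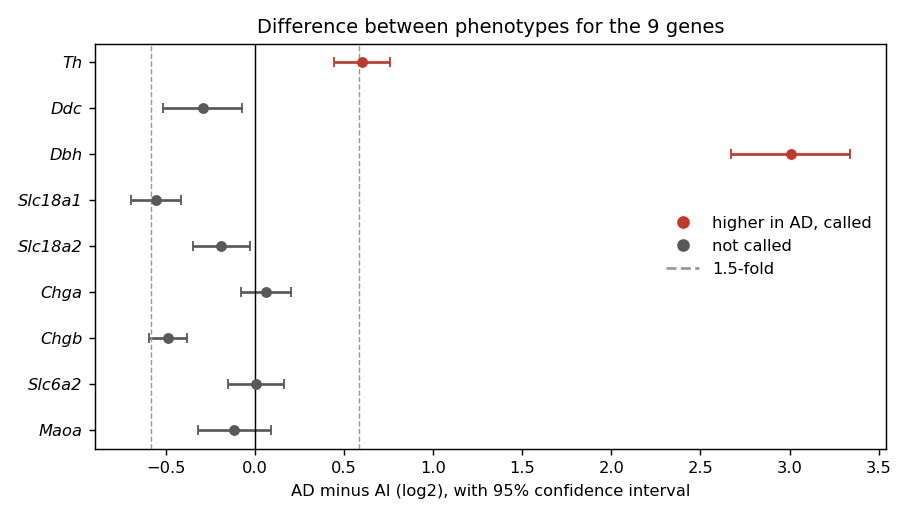
Difference between the phenotypes, AD minus AI in log2, for each of the 9 genes, with its 95% confidence interval from limma over 4 arrays per phenotype; red marks genes called higher in AD cells and dashed lines mark 1.5-fold. Dbh (3.01) stands apart from the rest, Th (0.60) lies at the upper line, and Slc18a1 (-0.56) and Chgb (-0.49) lie inside the lower one.

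Slc18a1 and Slc18a2 encode the vesicular monoamine transporters, the first known chiefly from chromaffin and other endocrine cells and the second from neurons. Slc18a1 had 6.04, 6.10, 6.12 and 6.11 log2 in AD cells, against 6.73, 6.50, 6.68 and 6.69 log2 in AI cells. The AI arrays lay above all AD arrays. The AD signals of Slc18a1 were not far above the AD array medians of 5.82 to 5.92 log2. The size of its difference, and of the ratio below, is therefore less certain than the direction. The difference was -0.56 log2 (standard error 0.06, adjusted p = 0.000419 from limma), 1.47-fold lower in AD cells and so below the 1.5-fold limit, and without AI replicate 2 it was -0.61 and was called. Slc18a2 was bright, with 10.31, 10.25, 10.24 and 10.45 log2 in AD cells, against 10.37, 10.58, 10.57 and 10.47 log2 in AI cells. AD replicate 4 lay within the AI range, and the difference of -0.19 log2 (95% confidence interval -0.35 to -0.03, adjusted p = 0.0995 from limma) did not pass the test. Without AD replicate 4 it was -0.24 log2 with an adjusted p of 0.0330, which did. Slc18a1 over Slc18a2 was 0.37 log2 lower in AD cells, with no overlap between the arrays (exact two-sided permutation test, p = 0.0286, adjusted p = 0.0343).

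Chga and Chgb encode chromogranins A and B, acidic proteins of the granule core. Chga had 10.57, 10.65, 10.70 and 10.46 log2 in AD cells, against 10.52, 10.59, 10.50 and 10.52 log2 in AI cells. The AI arrays lay inside the AD range, and the difference of 0.06 log2 had a 95% confidence interval of -0.08 to 0.20 (adjusted p = 0.584 from limma), which leaves out a change of 1.5-fold in either direction. Chgb had 10.58, 10.64, 10.62 and 10.59 log2 in AD cells, against 11.11, 11.11, 11.11 and 11.04 log2 in AI cells. No AD array reached the AI arrays. The difference of -0.49 log2 (standard error 0.05, 95% confidence interval -0.60 to -0.38, adjusted p = 0.000204 from limma) is 1.40-fold lower in AD cells, which passed the test but not the 1.5-fold limit. Both chromogranins are bright here, yet Chga over Chgb was 0.55 log2 higher in AD cells, again without overlap (exact two-sided permutation test, p = 0.0286, adjusted p = 0.0343).

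Slc6a2, the noradrenaline transporter, and Maoa, the oxidase that prefers noradrenaline and serotonin, stayed within the range of the dim list on every array. Slc6a2 had 4.97, 4.72, 4.80 and 4.88 log2 in AD cells, against 4.83, 4.82, 4.76 and 4.95 log2 in AI cells. Maoa had 5.02, 4.68, 4.69 and 4.97 log2 in AD cells, against 4.92, 5.08, 4.87 and 4.96 log2 in AI cells. For both genes the phenotypes overlapped, and a difference was not detectable at these signals (0.00 log2 with adjusted p = 0.979 for Slc6a2, -0.12 log2 with adjusted p = 0.452 for Maoa, both from limma). Maob, the related oxidase, also lay in that range, with 4.92 to 5.03 log2 in AD cells and 4.79 to 4.93 in AI cells, and Maoa over Maob did not pass the test between the phenotypes (-0.20 log2, exact two-sided permutation test, p = 0.143, adjusted p = 0.143).

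The other genes of the pathway were listed by role, 101 in 9 lists, of which 84 had a cluster that carries their symbol alone. Higher calls in AD cells numbered 3 (3.57%) and lower calls 2 (2.38%), beside the 1.39% and 2.53% of all clusters. Without a fold limit, 17 had an adjusted p under 0.05 toward AD cells and 16 toward AI cells, against 8.50% and 9.62% of all clusters. The clusters as a whole were not matched to these genes, or to the members, for signal or for having a single symbol. Pcsk1, Slc18a3 and Tlx2, which passed toward AD cells, stayed within the range of the dim list on every array. These counts at any fold varied when 1 array was left out, being 12 to 19 toward AD cells and 7 to 16 toward AI cells. Fewer arrays also lower the power, and no share over all clusters was taken for these fits. How much of a fall below the full count is lost power was therefore not tested. Each of these fits had 1 array fewer, so their spread went with which array was left out. Without AD replicate 1 or 3, or AI replicate 1, 2 or 3, the genes toward AI cells numbered 7 to 10, against 16 without AD replicate 4. The counts at any fold within single lists moved as well. The median difference of the 84 genes was 0.03 log2.

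Of 11 genes of tyrosine supply and the tetrahydrobiopterin cofactor that Th needs, none was called, and without a fold limit 3 were past the test toward AD cells and 2 toward AI cells. Gch1, the first enzyme of cofactor synthesis, had 9.41 to 9.63 log2 in AD cells and 9.36 to 9.54 in AI cells, a difference of 0.06 log2 (95% confidence interval -0.09 to 0.21). Of 5 related amine enzymes, 1 was higher in AD cells: Tph1, which uses the same cofactor to start serotonin synthesis. Tph1 had 8.50, 8.56, 8.33 and 8.35 log2 in AD cells, against 7.59, 7.69, 7.62 and 7.40 log2 in AI cells, a difference of 0.86 log2 (standard error 0.08, adjusted p = 0.000161 from limma). Pnmt, which turns noradrenaline into adrenaline, stayed within the range of the dim list, with 4.60 to 4.78 log2 in AD cells and 4.59 to 4.70 in AI cells.

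Among 7 genes that bring copper and ascorbate to the granule or amidate its peptides, Cyb561 was lower in AD cells and none was called higher. Cyb561 carries electrons across the granule membrane to renew the ascorbate that Dbh consumes. It had 8.21, 8.40, 8.28 and 8.46 log2 in AD cells, against 9.12, 9.03, 9.15 and 8.90 log2 in AI cells, a difference of -0.72 log2 (standard error 0.08, adjusted p = 0.000364 from limma), in the direction opposite to that of Dbh. At any fold, 3 of the others passed toward AD cells.

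Of 14 granule proteins and prohormone processing genes, Syt7 was lower in AD cells and none was higher. Syt7 is a calcium sensor of granule exocytosis. It had 7.14, 7.32, 7.23 and 7.04 log2 in AD cells, against 8.30, 8.35, 8.24 and 8.13 log2 in AI cells, a difference of -1.07 log2 (standard error 0.08, adjusted p = 3.64e-05 from limma). At any fold, 6 of the 14 passed toward AI cells, as Chgb did, and 2 toward AD cells. Of the latter, Pcsk1 stayed within the range of the dim list, with 5.16 to 5.27 log2 in AD cells and 4.93 to 5.06 in AI cells. The other was Scg2, secretogranin II, of the same family as the chromogranins. Scg2 had 9.28 to 9.35 log2 in AD cells and 9.07 to 9.18 in AI cells, a difference of 0.21 log2 (adjusted p = 0.0194 from limma). Scg2 no longer passed without AD replicate 3 (adjusted p = 0.0582), AI replicate 3 (0.0632) or AI replicate 4 (0.0513), nor with the replicate number as a block (0.0752). With 1 array left out, 3 to 6 of the 14 passed toward AI cells (3 without AD replicate 1 or AI replicate 1 or 2) and 1 to 2 toward AD cells. None of 15 genes of the proton pump that drives vesicle loading was called, with a median difference of 0.0018 log2, and without a fold limit 1 was past the test toward AD cells and 4 toward AI cells, those toward AI cells being 1 to 4 with 1 array left out.

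None of 5 other amine transporters was called. Slc6a3, the dopamine transporter, stayed within the range of the dim list, with 4.86 to 4.99 log2 in AD cells and 4.73 to 4.94 in AI cells. Of 10 other breakdown enzymes, Aldh2 was higher in AD cells and none was lower. Aldh2 is the mitochondrial dehydrogenase that clears the aldehydes left by monoamine oxidase, among many others. It had 8.93, 9.14, 9.05 and 9.06 log2 in AD cells, against 8.45, 8.51, 8.40 and 8.35 log2 in AI cells, a difference of 0.62 log2 (standard error 0.06, adjusted p = 0.000232 from limma). Of 7 measured catecholamine receptors none was called or passed at any fold as deposited, although 1 passed toward AD cells after quantile normalization or median centring, and none was above the dim list on every array.

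Of 10 sympathoadrenal transcription factors, Phox2a was higher in AD cells and none was lower. At any fold, 4 passed toward AD cells, Phox2a among them, and 1 toward AI cells, Gata2 (-0.23 log2). Of those toward AD cells, Tlx2 stayed within the range of the dim list, with 5.07 to 5.36 log2 in AD cells and 4.81 to 5.00 in AI cells. With 1 array left out, 3 to 4 passed toward AD cells and 0 to 1 toward AI cells. Phox2a is a homeodomain protein of noradrenergic neurons that is known to act on the Dbh promoter. It had 9.60, 9.82, 9.74 and 9.39 log2 in AD cells, against 8.57, 8.47, 8.55 and 8.43 log2 in AI cells, a difference of 1.13 log2 (standard error 0.09, adjusted p = 6.97e-05 from limma). AD replicate 4 was the lowest AD array for Phox2a as for Dbh. This was not particular to them: it was also the lowest for Chga, Syt7, Hand2 and Insm1, though not for Th. Without that array, 712 of all clusters were called higher in AD cells, against 495 with every array.

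**Figure D3:**
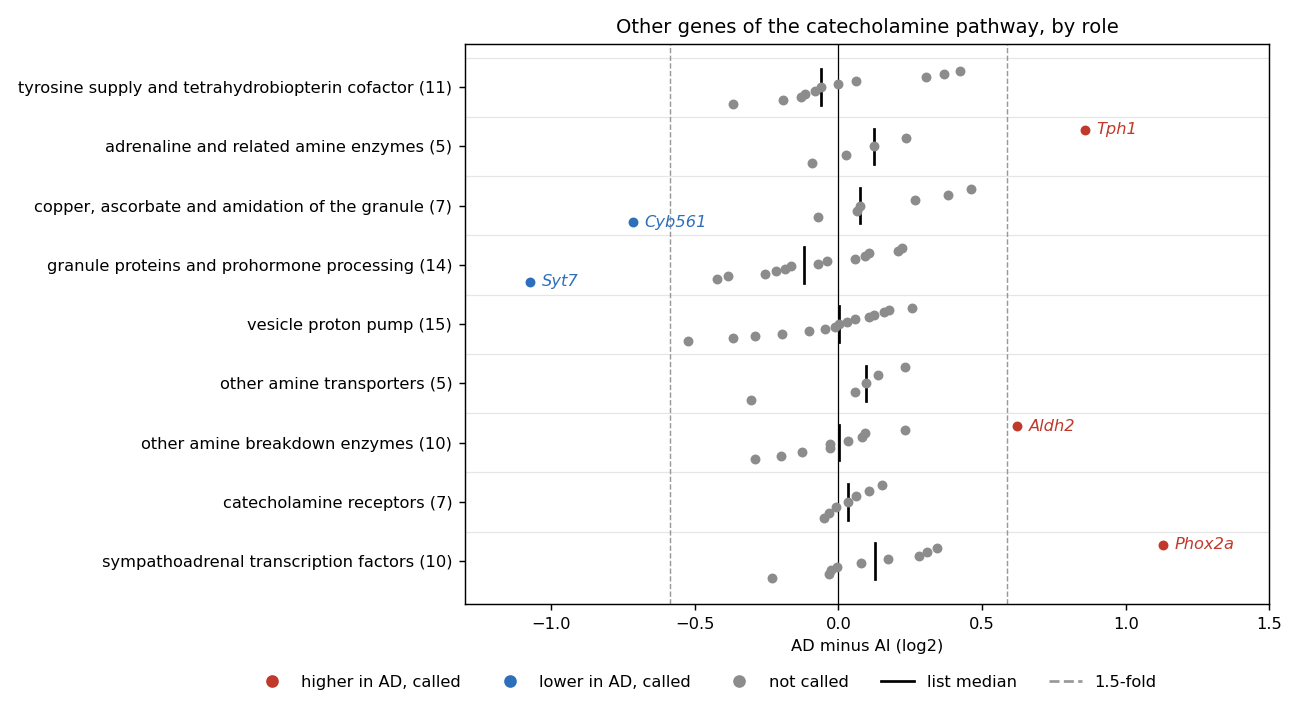
Difference between the phenotypes, AD minus AI in log2, for 84 other genes of the pathway in 9 lists by role, with the number measured in parentheses, 1 point per gene and a black bar at the list median; dashed lines mark 1.5-fold. The points called are Tph1 (0.86), Aldh2 (0.62) and Phox2a (1.13) higher in AD cells (red), and Cyb561 (-0.72) and Syt7 (-1.07) lower (blue).

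The 5 genes whose profile over the 8 arrays was most like that of Dbh were Htr3a, Necab1, Id3, Nnat and Sctr, by the root mean square distance of profiles centred on their own mean, among 19937 other genes. The distance was 0.35 log2 for Htr3a, a subunit of the serotonin-gated channel, 0.38 for Necab1, a neuronal calcium binder, 0.40 for Id3, an inhibitor of helix-loop-helix factors, 0.46 for the imprinted gene Nnat and 0.59 for Sctr, the secretin receptor. None of the other members was among them. This was fixed in advance by their smaller differences between the phenotypes, the largest of which was 0.60 log2, for Th. The likeness rests mostly on the step between the phenotypes, which was 3.64 log2 for Htr3a, 2.36 for Necab1, 2.25 for Id3, 2.14 for Nnat and 1.92 for Sctr, beside 3.01 for Dbh. AD replicate 4 was the lowest AD array for Htr3a, Id3 and Nnat, as for Dbh, and not for Necab1 and Sctr. The 5 genes were chosen by their values on these same arrays, AD replicate 4 included, so this likeness is no separate result. The AI signals of Id3 (4.69 to 4.78 log2) and Nnat (5.23 to 5.35) were below the median of every array, so their differences are not known exactly.

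**Figure D4:**
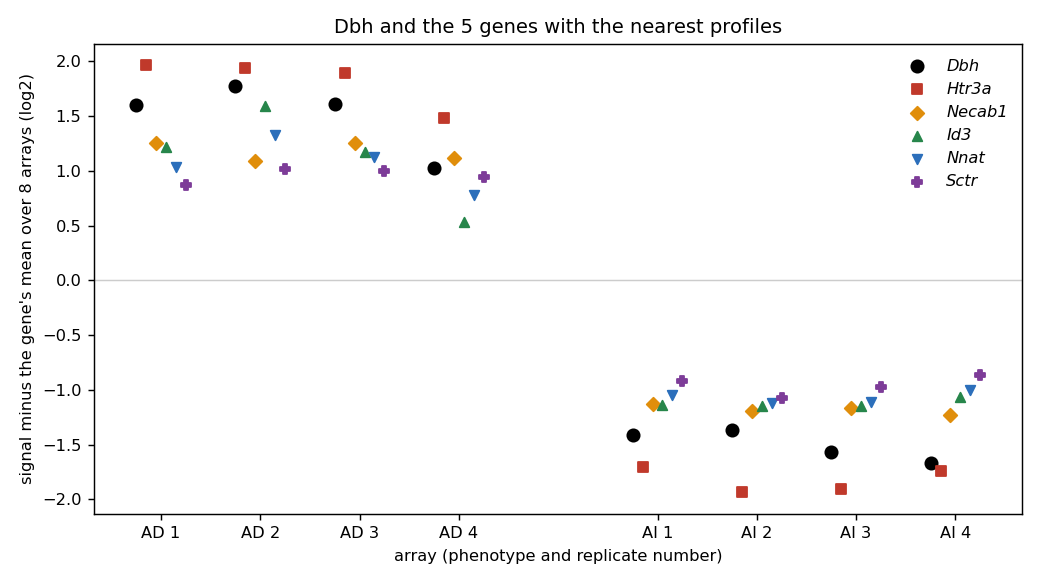
Signal of Dbh and of the 5 genes with the nearest profiles on each of the 8 arrays, as the difference in log2 from the gene's own mean, with AD arrays on the left and AI arrays on the right and 1 symbol per gene. All 6 genes are above their mean on each AD array and below it on each AI array, and on AD replicate 4 Dbh, Htr3a, Id3 and Nnat are at their lowest AD value. The 5 genes were chosen for their likeness to Dbh on these same arrays.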

How the data were processed

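RNA of 4 AD and 4 AI samples was hybridized to Affymetrix mouse gene arrays. The deposited values are log2 signals of 35556 transcript clusters, which the authors background-corrected and normalized with GCRMA. The submitters' processing notes name Partek 6.5; the methods name further normalizations, whose values were not used here. The values were analysed as deposited. Clusters were named by the platform annotation, 21789 with a single symbol.

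The test was limma 3.58.1 under R 4.3.3, fitted on the phenotype alone over the whole table, and p-values were adjusted by Benjamini-Hochberg across it. On simulated arrays of this comparison with 200 of 35556 clusters changed, the model recovered 90.0% of those changed 1.75-fold and 92.0% of those changed 2-fold, and called 2 unchanged clusters. Exact two-sided permutation tests and tables used Python 3.11.15 with scipy 1.17.1, pandas 2.3.3, numpy 2.4.6 and matplotlib 3.10.9.

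The members and lists were chosen with earlier results of these data known. Named genes are the members, fixed genes of the pathway (Pnmt, Maob, Slc6a3, Cyb561, Gch1 and Scg2, with 1 more that is not reported here), up to 3 called genes per list and direction, and the 5 genes nearest to Dbh. The alternatives were quantile normalization, median centring, leaving out clusters below the 40th percentile, the one-way analysis of variance of the methods, trend and robust moderation, array weights, a replicate block, other thresholds, the mean of a gene's clusters, and leaving out each array.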

Additional observations from a re-analysis of the deposited data

Results flagged for a closer look

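In 48 groups of 4 arrays (24 named genes in 2 phenotypes), 3 held an array far from the others of its group, where chance gives about 5% of groups. Chgb in AI replicate 4 was at 11.04 log2, below the other AI arrays, the nearest of which was at 11.11. Htr3a in AD replicate 4 was at 9.56 log2, with the nearest other AD array at 9.97. Id3 in AI replicate 4 was at 4.78 log2, with the nearest other AI array at 4.70, both below the array medians.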

How the results depend on the processing

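Dbh kept its call under every alternative run, with differences of 2.92 to 3.16 log2 when single arrays were left out. Th (0.55 to 0.64 without single arrays) fell under 1.5-fold with array weights (0.58), where 1 member was called higher, as at a fold of at least 2. Without single arrays, 1 to 2 members were called higher and 0 to 1 lower, with Slc18a1 at -0.61 to -0.53. With no fold minimum 2 members were lower. Slc6a2 changed sign without single arrays (-0.039 to 0.044), and Pnmt did so with array weights (-0.0021) and without single arrays (-0.017 to 0.046). Of the other pathway genes, 17 were higher and 16 lower with no fold minimum, and 1 and 1 at a fold of at least 2. Median centring raised the median of all clusters to 0.08 log2 and changed the share of called clusters lower in AD cells to 47.0%, against 64.5% as deposited; no member changed sign or call with it. In the other 450 combinations of a result and a setting, the direction and the call (adjusted p and 1.5-fold together), or for ratios the side of 0.05, were kept, or a count stayed within 1.5 times. The adjusted p alone changed its side of 0.05 in 7 of these, for Ddc, Slc18a2 and Scg2, with the values given above. At any fold, the other pathway genes that passed were 20 higher and 7 lower after median centring and 11 and 8 with the replicate block.

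Over all clusters, the replicate numbers gave no sign of pairing. Same-numbered AD and AI arrays correlated at -0.17 to 0.08 in their deviations from the phenotype means. Of 8 arrays, 1 correlated best with its own number. Pairing for single genes is not settled by this. The replicate block lowered the standard error for Dbh (0.149 to 0.093) and raised it for Th (0.069 to 0.076). With the replicate block, limma called 476 clusters higher and 876 lower, against 495 and 901, and no member changed its call. For the ratios between members, the block gave the same differences (2.41 for Dbh over Th, 3.30 for Dbh over Ddc, 0.89 for Th over Ddc, -0.37 for Slc18a1 over Slc18a2 and 0.55 for Chga over Chgb) with p = 0.125 by exact sign flips, the smallest that 4 pairs allow. Without single arrays they were 2.32 to 2.57, 3.20 to 3.50, 0.84 to 0.94, -0.44 to -0.30 and 0.52 to 0.59 in the same order, with an adjusted exact p of 0.0686, since fewer arrays cannot pass the threshold.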
